A study of Mus musculus with 9 samples.

Results

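Macrophages are set apart from other blood cells by a small group of transcription factors, and 9 of them were followed in liver macrophages of mice on 2 diets, with and without diphenyleneiodonium (DPI). The members were taken by gene symbol from the deposited count table and numbered 9 of its 23413 genes. They were Spi1, Spic, Cebpa, Cebpb, Maf, Id3, Zeb2, Pparg and Rxra, and 8 matched directly. The ninth, Spi1, is listed in the table under its older symbol Sfpi1. All 9 passed the filter on low counts and were among the 11393 genes tested.

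All libraries came from male C57BL/6 mice with no genetic change named in the sources, placed on their diets at 5 weeks of age. The ND group (2 libraries) was fed normal chow. The HFD_Veh group (3 libraries) received a high-fat diet for 8 weeks and intraperitoneal PEG3000 vehicle, and the HFD_DPI group (4 libraries) received the same diet and 2 mg/kg DPI every 5 days from week 3. Macrophages were sorted from each liver as F4/80+ CD11b+ cells low in Gr1, a gate that the study describes as mostly Kupffer cells and that does not separate these from monocyte-derived macrophages. The protocol in the sample labels instead names 500 nM DPI for 24 h on purified cells. The 2 accounts differ, and the dosing of the animals as the study describes it was followed here.

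PU.1, the product of Spi1, is an ETS-family factor needed for the formation of macrophages, where it opens enhancers together with C/EBP factors. In tissue-resident macrophages these shared enhancers are then shaped by factors that differ between organs, and in the Kupffer cell they include ID3, ZEB2, c-MAF, SPI-C and the nuclear receptors. PPARγ and RXRα bind DNA as a dimer and are activated by lipids. ID proteins bind no DNA, and act by holding E proteins away from it.

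Library totals lay between 3534325 and 15585775 counts with a median of 4918629, and the ribosomal transcript Rn45s took 27% to 44.5% of them. The 2 ND libraries were the least alike of any pair within a group, with a Spearman rho across genes of 0.74 against 0.838 to 0.887 in the other groups. General macrophage genes were abundant, with 6 markers summing to 15083 to 43971 counts per 1000000 (CPM). By contrast, 10 Kupffer cell identity genes summed to 5.65 to 113 CPM, and Clec4f, their defining lectin, had 0 counts in ND 1, HFD_Veh 2 and HFD_Veh 3. Monocyte markers summed to 3888 to 7591 CPM. The labelled Kupffer cell type therefore had its defining markers near 0 in most libraries, and the cells are called liver macrophages below. Since these are bulk samples, fewer cells of a type and less RNA per cell cannot be told apart.

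Promoter sequence is shown for Id3, Spic and Rxra, because the differences described below turn on these genes and each carries a short match to a motif of the members. RefSeq promoter windows on GRCm38.p6 covered 7 of the 9 members in 13 windows of 250 bases upstream of the start, and none was found for Spi1 or Maf. Letters were searched on both strands for the PU.1 core GAGGAA (found in 23.3% of 32851 windows of the same length), the C/EBP core TTGCG (14.5%), the E2 box CACCTG bound by ZEB proteins (17.2%), the nuclear receptor core AGGTCA (14%) and the MAF core TGCTGA (16.1%). Capitals mark the matches, all sequences read 5′ to 3′ on the strand of the gene, and positions count back from the start site. The Id3 stretch (chr4:136143606-136143635, plus strand), which lies inside an exon of the GENCODE annotation, holds a pair of PU.1 cores on the minus strand, at -208 and -201. The Spic window (chr10:88683024-88683273, minus strand), inside the GENCODE gene but in no exon, holds 1 MAF core at -198. The second Rxra window (chr2:27709042-27709291, plus strand), also intronic, holds 2 nuclear receptor cores, at -87 on the minus strand and at -48 on the plus strand.
Id3: atcagcgcTTCCTCaTTCCTCgcatccgag
Spic: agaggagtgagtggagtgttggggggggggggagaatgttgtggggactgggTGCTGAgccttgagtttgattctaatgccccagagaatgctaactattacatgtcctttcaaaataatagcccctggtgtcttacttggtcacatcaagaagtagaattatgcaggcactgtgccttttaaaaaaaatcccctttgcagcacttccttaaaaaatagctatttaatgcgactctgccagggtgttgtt
Rxra: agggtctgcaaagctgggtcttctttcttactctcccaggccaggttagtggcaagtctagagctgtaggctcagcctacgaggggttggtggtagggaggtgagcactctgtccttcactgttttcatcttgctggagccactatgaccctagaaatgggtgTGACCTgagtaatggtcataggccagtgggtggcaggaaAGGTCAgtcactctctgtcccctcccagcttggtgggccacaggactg
The first Rxra window and the Cebpa window each held 1 C/EBP core, all 4 Zeb2 windows held 1 PU.1 core each (3 distinct places, since 2 of the windows overlap and share one), 2 of the 3 Pparg windows held a nuclear receptor core, the second of these also a PU.1 core at -240 and an E2 box at -247, and the Cebpb window held none of these letters. Each motif occurs in a large share of all promoters, and a match of 5 or 6 letters is not a measured binding site.

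**Figure D1:**
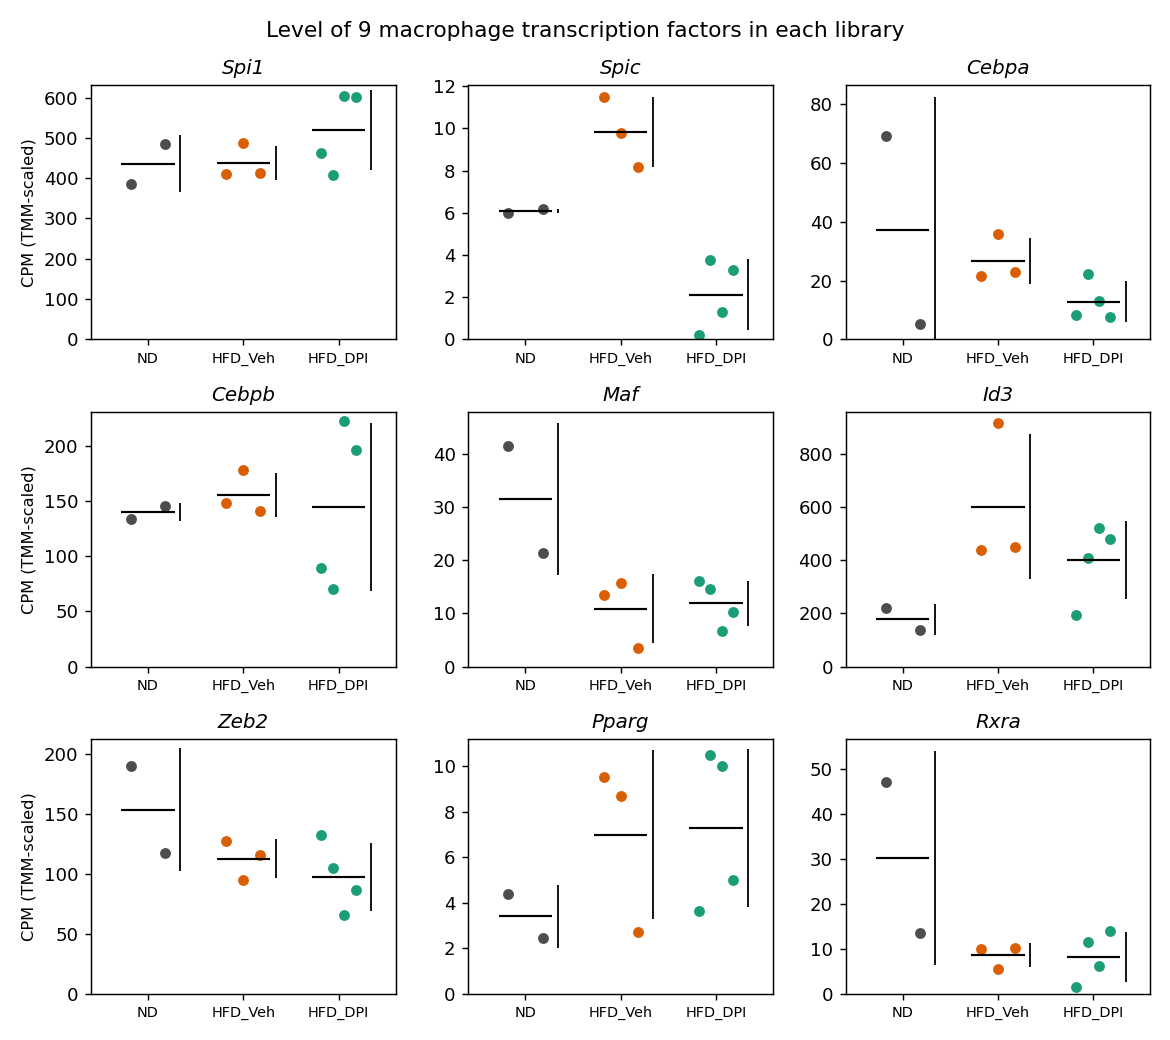
CPM (TMM-scaled, linear axes starting at 0) of each factor in the 9 libraries. Each point is a library, horizontal lines are group means and vertical lines are 1 SD either side of the mean, ending at 0 where they would pass below it. Spi1 stayed between 386 and 605 CPM throughout, the 4 HFD_DPI libraries lay lowest for Spic, and both ND libraries lay highest for Maf.

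The order of abundance was set by 3 factors. Expressed as CPM per kb of the longest annotated transcript, so that genes of different length can be compared, Spi1 stood at 214 ± 34.5 (SD, n = 2) in ND, 215 ± 21.3 (n = 3) in HFD_Veh and 255 ± 49.1 (n = 4) in HFD_DPI. Id3 stood at 139 ± 46.1, 471 ± 215 and 314 ± 114 CPM per kb in the same groups, and Cebpb at 93.1 ± 5.64, 104 ± 13.3 and 96.2 ± 50.4. In each group these 3 lay between the 92nd and the 98.7th percentile of all tested genes with a length. Spi1 led in ND and Id3 led in both HFD groups, but the SDs of Spi1 and Id3 overlapped in ND and in HFD_DPI. Zeb2 (10.6 to 16.8 CPM per kb) and Cebpa (4.9 to 14.2) came next and overlapped within their SDs in ND and HFD_Veh. Spic, Maf, Pparg and Rxra had group means of 1.2 to 6.16 CPM per kb, and neighbours in their order overlapped within their SDs in every group, except that Spic lay above Pparg in ND.

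Spi1 was the steadiest factor. This gene (ENSMUSG00000002111.8, chr2:91082390-91115756, plus strand, GRCm38) encodes PU.1. Its level was 386 and 486 CPM in ND, 411, 487 and 414 in HFD_Veh, and 463, 407, 605 and 601 in HFD_DPI. The groups overlapped in all 3 comparisons. The log2 fold change was 0.01 for HFD_Veh versus ND (95% interval -0.59 to 0.60) and 0.25 for HFD_DPI versus HFD_Veh (-0.26 to 0.75). As folds, these intervals run from 0.663 to 1.52 and from 0.837 to 1.68, so a 2-fold difference of Spi1 lay outside both. The sign of the first value turned under library-size scaling (-0.28), which also moved the median of all genes from 0.03 to -0.26.

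The high-fat diet comparison, HFD_Veh against ND, asks how these factors differed after 8 weeks of the diet. HFD_Veh mice also had vehicle injections, and the sources name none for ND, so diet and injections cannot be told apart in it. No member passed an adjusted p of 0.05 in edgeR's quasi-likelihood fit, where Benjamini-Hochberg adjustment ran over all 11393 genes, of which 7 did (0.0614%). At the threshold the study used, an unadjusted p under 0.05 with at least a 2-fold change, 3 of 9 members were called, Id3 higher and Maf and Rxra lower, against 11.7% of all genes. Genes called at that threshold are described below as called. All 9 had a median log2 fold change of 0.01, beside 0.03 over all genes tested. The 2 groups did not overlap in CPM for 4 of 9 members (Spic, Maf, Id3 and Rxra), against 27.5% of all genes. The calls over all genes were 801 higher and 528 lower, and library-size scaling turned that split to 539 higher and 933 lower.

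Id3 showed the clearest difference with diet. It lies at chr4:136143497-136145755 (plus strand, ENSMUSG00000007872.3) and encodes an inhibitor of E proteins. Its level was 219 and 136 CPM in ND and 437, 918 and 451 CPM in HFD_Veh, from 729 to 5064 counts a library. The lowest HFD_Veh library thus lay above the higher ND library. The log2 fold change was 1.76 (SE 0.46, 95% interval 0.76 to 2.76, unadjusted p = 0.00215, adjusted p = 0.17, edgeR quasi-likelihood test), or 3.39-fold. The call held under every alternative run, including each library left out in turn, although the adjusted threshold was not passed.

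Id1 and Id2 stood the same way. Among 27 relatives and dimer partners of the members, 24 were tested, and 3 were called higher in HFD_Veh and 0 lower, a share near the 11.7% of all genes (median log2 fold change 0.22 against 0.03 for all genes). The number called higher was 2 without ND replicate 1, HFD_Veh replicate 1 or HFD_Veh replicate 2, and 5, with 1 lower, without ND replicate 2. Both of the other ID genes on this list were among the 3. Id1 had a mean of 33.5 ± 2.79 CPM (SD, n = 2) in ND and 82.6 ± 8.65 (n = 3) in HFD_Veh, a log2 fold change of 1.30 (SE 0.33, unadjusted p = 0.00162, adjusted p = 0.155). Id2 had 242 ± 21 and 553 ± 104 CPM, a log2 fold change of 1.19 (SE 0.43, unadjusted p = 0.0152, adjusted p = 0.293), and it was no longer called under library-size scaling (0.92) or without ND replicate 1. The third, Ddit3, which encodes the stress-induced C/EBP partner CHOP, was 1.46 higher on the log2 scale (SE 0.59, adjusted p = 0.339). It lost its call under library-size scaling and without ND replicate 2, HFD_Veh replicate 1 or HFD_Veh replicate 2. Under library-size scaling 1 of the 24 was called higher and 1 lower. Markers of B cells, which also use ID3, summed to 14.9 and 69.3 CPM in ND and to 117, 204 and 161 CPM in HFD_Veh, with 6 of 6 genes positive and 2 called. Dendritic cell markers summed to 55.2 and 108 CPM in ND and 193 to 310 CPM in HFD_Veh, with 3 of 7 genes positive and 1 called. The one called was Ccr7, a chemokine receptor of migrating dendritic cells and of lymphocytes, with 0 and 250 counts in ND and 516, 1524 and 572 in HFD_Veh, while Flt3 had a log2 fold change of -0.73 and was not called. No marker of either list was at 0 in all libraries of a group, and their part in the Id3 result was not tested.

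**Figure D2:**
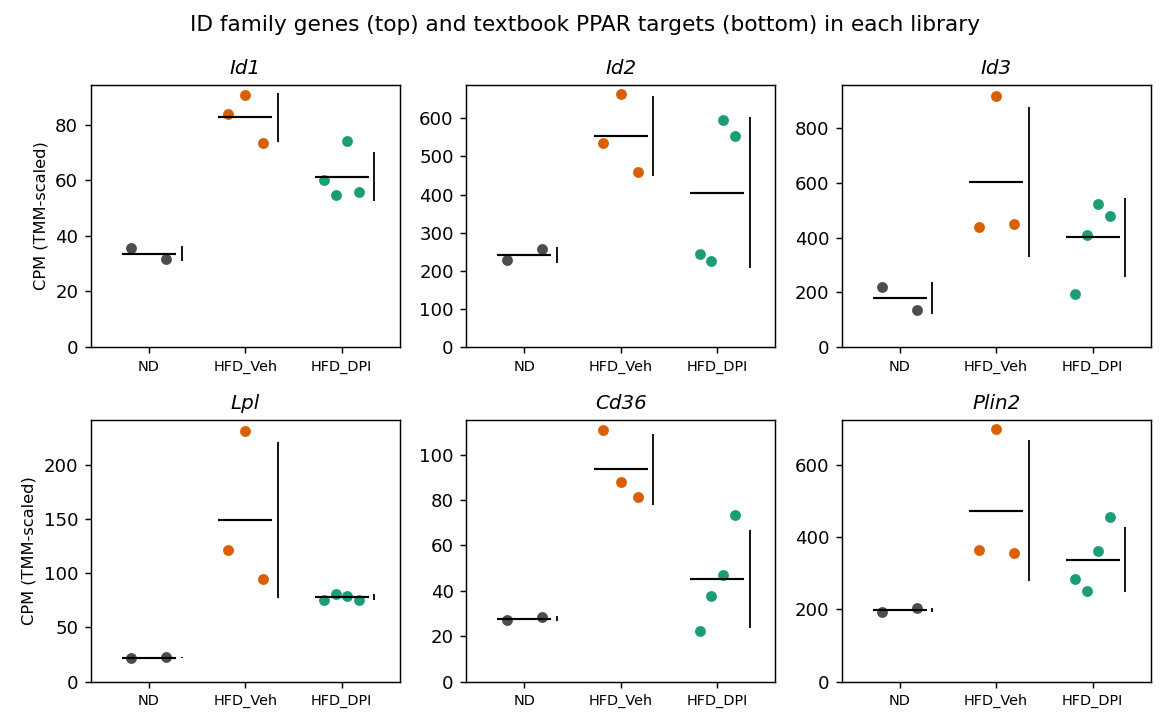
CPM (TMM-scaled, linear axes starting at 0) of Id1, Id2 and Id3 (top) and of Lpl, Cd36 and Plin2 (bottom) by library. Points are libraries, horizontal lines are means and vertical lines are 1 SD either side. For all 6 genes both ND libraries lay below the 3 HFD_Veh libraries.

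Maf, which encodes c-MAF, a bZIP factor of mature macrophages, stood in the opposite direction. It lies at chr8:115682942-115707794 (minus strand, ENSMUSG00000055435.6). The levels were 41.5 and 21.3 CPM in ND, 13.5, 15.6 and 3.47 CPM in HFD_Veh, and 16, 14.6, 6.68 and 10.3 CPM in HFD_DPI. Both ND libraries lay above all 7 libraries from HFD-fed mice. HFD_Veh versus ND gave a log2 fold change of -1.52 (SE 0.66, 95% interval -2.95 to -0.10, unadjusted p = 0.0376, adjusted p = 0.358, edgeR quasi-likelihood test). The call was lost without ND replicate 1 (-0.95), HFD_Veh replicate 1 (-1.65), HFD_Veh replicate 3 (-1.05) or HFD_DPI replicate 2 (-1.47), and in the fit of the 2 groups alone (-1.53), and all these values were negative.

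Genes linked to c-MAF in macrophages were looked at beside it, 6 in all. Each had a negative log2 fold change in HFD_Veh versus ND under each of the 4 scalings, with a median of -0.85 (-0.54, with 5 of 6 negative, without ND replicate 2). Against 11.7% of all genes, 1 was called. This was C1qa, a chain of complement C1q, at 87.3 ± 7.32 CPM in ND (n = 2) and 33.7 ± 12 in HFD_Veh (n = 3), with a log2 fold change of -1.37 (SE 0.57, adjusted p = 0.345). Its call was lost without ND replicate 1, ND replicate 2, HFD_Veh replicate 1 or HFD_Veh replicate 3. Most sinusoidal endothelial markers moved in the same direction. Their sum was 138 and 205 CPM in ND but 9.43 to 12.9 CPM in HFD_Veh, with 6 of 7 tested genes negative and 4 called lower. The exception, Pecam1, was called higher, with 5 and 6 counts in ND and 39, 50 and 7 in HFD_Veh, a call lost without ND replicate 1, HFD_Veh replicate 1 or HFD_Veh replicate 2 and in the fit of the 2 groups. Without ND replicate 2, 4 of the 7 were negative and 3 called lower. Stab2, a defining scavenger receptor, had 211 and 276 counts in ND and 0, 1 and 8 in HFD_Veh. Hepatocyte markers summed to 307 and 436 CPM in ND and 163 to 200 CPM in HFD_Veh, with 8 of 8 genes negative and 3 called lower. Trf, which was not called, had the most counts of this list in each library, 1013 and 1138 in ND and 591, 833 and 511 in HFD_Veh. Alb, which was called, differed more, at 56.1 and 107 CPM in ND and 21.8, 5.44 and 9.66 CPM in HFD_Veh (-2.74 on the log2 scale, SE 0.59). Kupffer cell identity genes summed to 5.65 and 113 CPM in ND and 11.2 to 33.5 CPM in HFD_Veh, with 4 of 5 tested genes negative and 1 called lower, Clec1b (2 and 163 counts in ND, 17, 1 and 2 in HFD_Veh). The part of these cells in the Maf result was not tested.

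Rxra, the shared dimer partner of many nuclear receptors, was called lower but rested on 1 library. It lies at chr2:27676440-27762957 (plus strand, ENSMUSG00000015846.14). The levels were 47 and 13.4 CPM in ND against 9.99, 5.44 and 10.2 CPM in HFD_Veh, so the second ND library lay close to the HFD range. The log2 fold change was -1.83 (SE 0.83, 95% interval -3.61 to -0.05, unadjusted p = 0.0451, adjusted p = 0.375, edgeR quasi-likelihood test). Without ND replicate 1 it was -0.65 (unadjusted p = 0.511). The call was also lost without each of the 3 HFD_Veh libraries (-1.92 to -1.58) and without HFD_DPI replicate 2 or 3. The summed endothelial and hepatocyte markers given for Maf were higher in ND, and their part in this value was not tested.

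**Figure D3:**
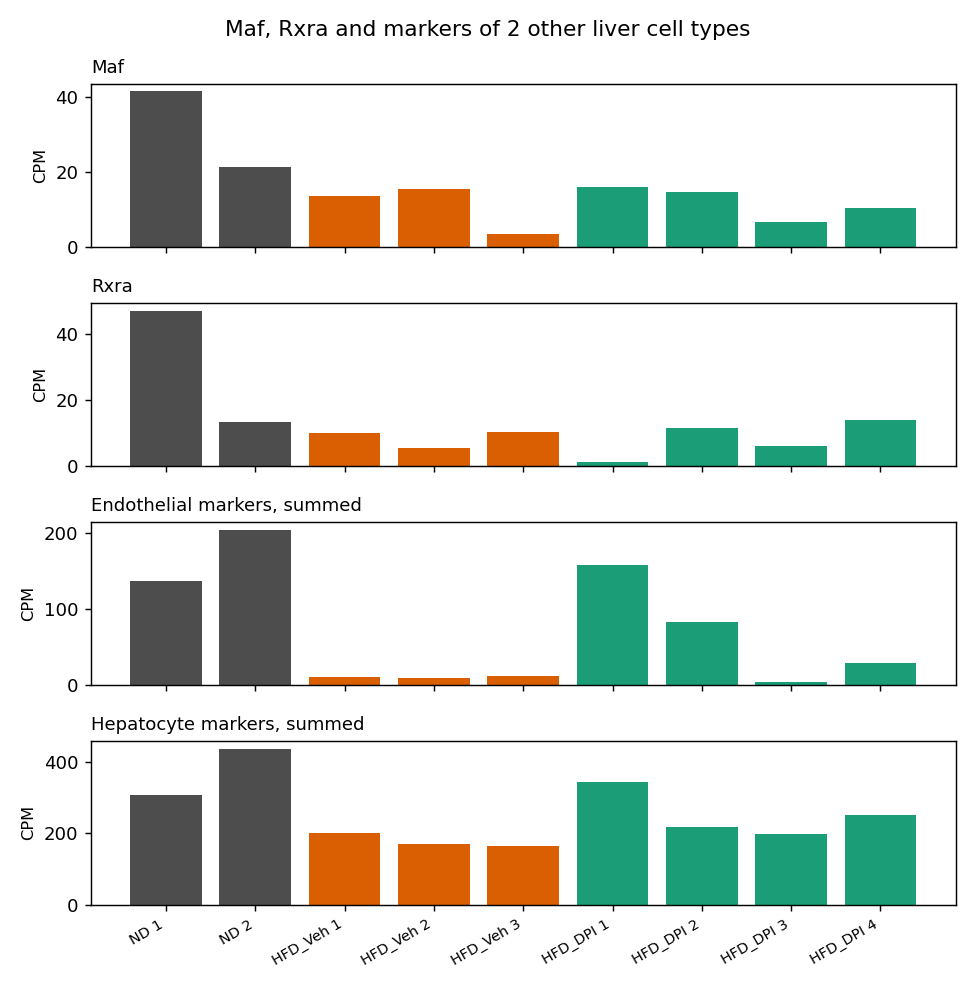
CPM (TMM-scaled) per library of Maf and Rxra and the summed CPM of 8 endothelial and 8 hepatocyte markers, as bars from 0. Grey bars are ND, orange bars HFD_Veh and green bars HFD_DPI libraries. ND 1 had the highest Maf and Rxra, while ND 2 had the highest marker sums. Among the hepatocyte markers, Trf had the most counts in each library.

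Pparg, encoding the lipid-activated receptor PPARγ, was scarce, and its diet difference was not settled. It had 24 and 13 counts in ND and 43, 48 and 11 counts in HFD_Veh, or 4.37 and 2.43 against 9.54, 8.71 and 2.73 CPM. One HFD_Veh library lay within the ND range. The log2 fold change was 1.04 with a 95% interval of -0.91 to 2.98. Textbook target genes of PPAR and RXR dimers were better measured. Of 10 such genes, 9 were tested, 7 with a positive and 2 with a negative log2 fold change, at a median of 0.56. At the study's threshold 4 were called higher and 0 lower, against 11.7% of all genes. Library-size scaling gave 3 higher and 1 lower, 2 were called without HFD_Veh replicate 2 (median 0.21), and the median was 0.12 without ND replicate 1 and 1.32 without ND replicate 2. Lpl, lipoprotein lipase, rose from 22 ± 0.522 CPM in ND to 149 ± 72.2 in HFD_Veh (log2 fold change 2.76, SE 0.42, adjusted p = 0.0452), and was the single gene of this list past the adjusted threshold. That was lost under library-size scaling (adjusted p = 0.0847), in the fit of the 2 groups (0.183) and without any 1 of 7 of the 9 libraries (all but ND replicate 2 and HFD_Veh replicate 3), over a range of 1.62e-07 to 0.183 in all alternatives, while the study's threshold was passed throughout. Cd36, a fatty acid receptor, stood at 27.8 ± 1.15 and 93.3 ± 15.2 CPM (1.75 on the log2 scale, SE 0.47, adjusted p = 0.175). Plin2, which coats lipid droplets, stood at 198 ± 6.65 and 473 ± 196 CPM (1.25, SE 0.37, adjusted p = 0.226), and lost its call without HFD_Veh replicate 2 (0.86) and under library-size scaling (0.99). The fourth, Angptl4, named here because the count called for it, had 0 counts in both ND libraries and 0, 12 and 9 in HFD_Veh, so no fold is given.

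Neither C/EBP factor was called with all libraries in the fit. Cebpb, which drives inflammatory genes in macrophages, was 134 and 146 CPM in ND and 148, 178 and 141 CPM in HFD_Veh (log2 fold change 0.15, 95% interval -0.80 to 1.11). Of 8 inflammatory genes linked to it, 7 were tested, and 2 were called higher and 1 lower (11.7% of all genes were called). These numbers were 1 and 0 without HFD_Veh replicate 1 or 2. The 2 higher were Ptges and Tnfaip6, with at most 2 counts in an ND library. Lcn2, which encodes a siderophore-binding protein that neutrophils also make, was the one called lower, at 249 ± 80.2 CPM in ND and 117 ± 34.5 in HFD_Veh (-1.08 on the log2 scale, SE 0.48, adjusted p = 0.363). Its call was lost without ND replicate 2 or any of the 3 HFD_Veh libraries. Of 10 neutrophil markers, 2 were also called lower, Mmp8 (-1.13 on the log2 scale, SE 0.45) and Camp (-1.18, SE 0.47), and 1 higher, Mpo, with 0 and 6 counts in ND and 31 to 126 in HFD_Veh. Their sum overlapped, at 1242 and 3178 CPM in ND and 2412 to 3773 CPM in HFD_Veh, and the part of neutrophils in the Lcn2 value was not tested.

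Cebpa, a factor of early myeloid cells, could not be placed. Its 2 ND libraries read 69.2 and 5.23 CPM (380 and 28 counts), further apart than any other member in that group. HFD_Veh libraries read 21.5, 35.7 and 22.8 CPM, between them. The log2 fold change was -0.48 with all libraries and 2.36 without ND replicate 1. It was -1.34 without ND replicate 2, and it was called in both of these fits, so the direction of the call depended on which ND library was kept.

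Zeb2, a zinc finger repressor that keeps tissue macrophage identity, stood at 190 and 117 CPM in ND and 127, 94.9 and 116 CPM in HFD_Veh. The groups overlapped, and the log2 fold change was -0.45 (95% interval -1.21 to 0.32). Spic, an ETS factor of red pulp and other iron-recycling macrophages, was 6.01 and 6.16 CPM in ND and 11.5, 9.79 and 8.18 CPM in HFD_Veh. Although these 2 groups did not overlap, the counts were only 33 to 54 a library, and the log2 fold change of 0.69 had a 95% interval of -1.57 to 2.95.

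**Figure D4:**
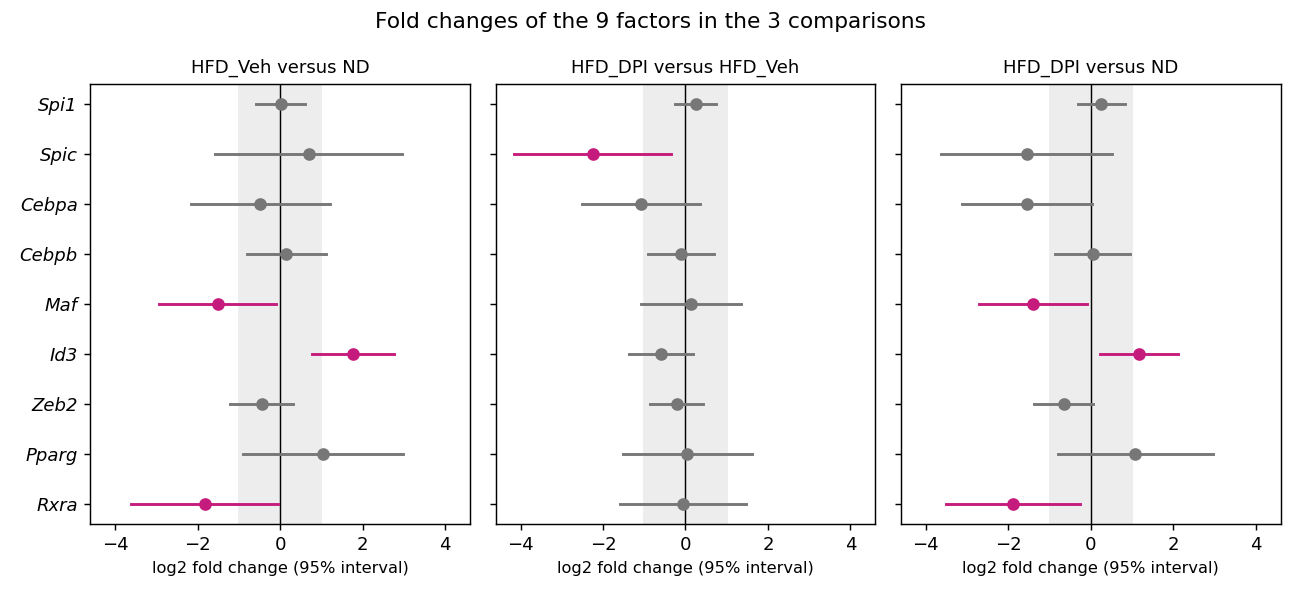
Log2 fold change (points) and 95% interval (lines) of each factor in the 3 comparisons from edgeR's quasi-likelihood fit. The grey band marks less than a 2-fold change, and magenta marks members called at an unadjusted p under 0.05 with at least a 2-fold change. Id3, Maf and Rxra were called in both comparisons with ND, and Spic in HFD_DPI versus HFD_Veh.

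The comparison of HFD_DPI with HFD_Veh asks what DPI did in mice on the diet, and it uses the same HFD_Veh libraries as above. No gene passed the adjusted threshold (0 of 11393, 0%), the smallest adjusted p being 0.999. At an unadjusted p under 0.05 there were 470 genes. DESeq2 called 2 genes and edgeR's likelihood ratio test 1 gene at an adjusted p under 0.05. At the study's threshold, 1 of 9 members was called, Spic, against 2.84% of all genes, and Spic was also the one member whose groups did not overlap, against 5.85% of all genes. The members had a median log2 fold change of -0.11, beside 0.04 over all genes. Calls over all genes were 171 higher and 153 lower, or 196 and 101 under library-size scaling and 122 and 65 without HFD_Veh replicate 1. The split turned under other alternatives. It was 65 higher and 137 lower with at least 10 counts in every library, 155 and 239 in the fit of the 2 groups, and 214 and 307 without HFD_Veh replicate 2.

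Spic (chr10:88674772-88685015, minus strand, ENSMUSG00000004359.16) had 52, 54 and 33 counts in HFD_Veh and 3, 11, 7 and 32 counts in HFD_DPI. Scaled to depth, the levels were 11.5, 9.79 and 8.18 CPM in HFD_Veh and 0.184, 3.74, 1.3 and 3.27 CPM in HFD_DPI. The deepest library, HFD_DPI 1, held just 3 counts, the number taken here as the floor, out of 15585775. All 4 HFD_DPI libraries lay below all HFD_Veh libraries and below both ND libraries. The log2 fold change was -2.25 (SE 0.88, 95% interval -4.15 to -0.35, unadjusted p = 0.024, adjusted p = 0.999, edgeR quasi-likelihood test), or 4.74-fold lower. Without HFD_Veh replicate 1, HFD_Veh replicate 2 or HFD_DPI replicate 3 it lost its call, with values of -2.12, -2.24 and -2.08. A filter of 10 counts in every library removed the gene.

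Of 5 genes of iron-recycling macrophages linked to SPI-C, 1 was called lower and 0 higher (2.84% of all genes were called). It was Hmox1, haem oxygenase, which breaks down haem. Hmox1 read 310, 175 and 232 CPM in HFD_Veh and 76.4, 94.4, 149 and 75.9 CPM in HFD_DPI, and the groups did not overlap. Its log2 fold change was -1.27 (SE 0.31, unadjusted p = 0.00109, adjusted p = 0.999), and it was called under every alternative run. In HFD_Veh versus ND, Hmox1 had been called higher (1.22, SE 0.39, adjusted p = 0.253), a call lost under library-size scaling (0.92). Over the list, 3 of 5 genes were positive with a median of 0.21, but the sign of the median turned without HFD_Veh replicate 1 (-0.04), HFD_DPI replicate 1 (-0.75) or HFD_DPI replicate 2 (-0.12), with at least 10 counts in every library (-0.94, 3 genes) and in the fit of the 2 groups (-0.40). Slc40a1, the iron exporter ferroportin, was -0.94 (SE 0.65) and Cd163 was 1.14 (SE 1.02), and neither was called.

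**Figure D5:**
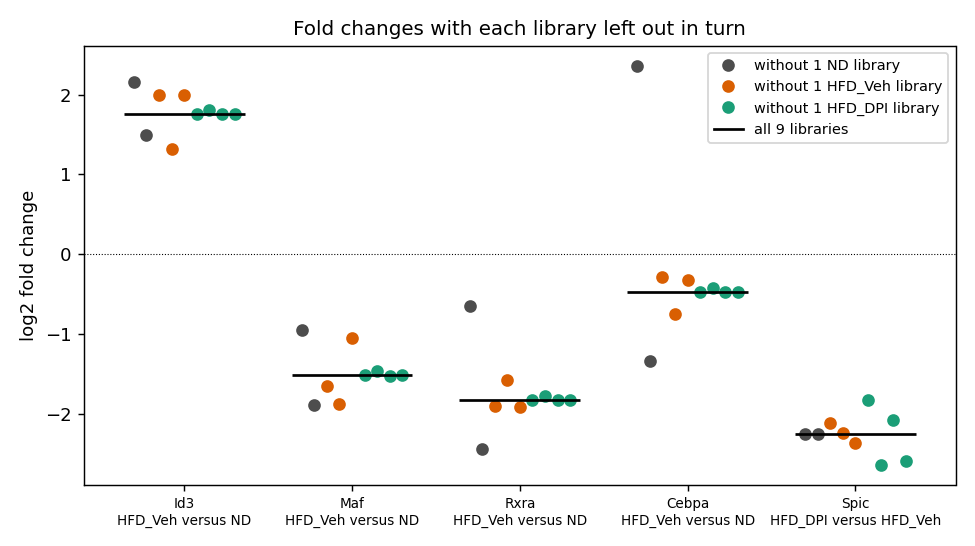
Log2 fold changes (vertical axis) of 4 factors in HFD_Veh versus ND and of Spic in HFD_DPI versus HFD_Veh with all 9 libraries (black lines) and with each library left out in turn (points, coloured by the group of the library removed). Cebpa turned from -0.48 to 2.36 without ND replicate 1, and Id3 and Spic kept their sign throughout.

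Id3 was 194, 408, 521 and 480 CPM in HFD_DPI, which overlapped HFD_Veh. Its log2 fold change was -0.59 with a 95% interval of -1.37 to 0.19, so neither no change nor a 2-fold decrease lay outside it. Cebpa was -1.07 (-2.51 to 0.36), with 8.34, 22.4, 13.2 and 7.55 CPM in HFD_DPI, and was called in the fit of the 2 groups only and without either ND library. Cebpb split the HFD_DPI libraries, with 89.7 and 70.3 CPM in HFD_DPI 1 and 2 and 223 and 196 CPM in HFD_DPI 3 and 4, on both sides of the HFD_Veh range. Summed neutrophil markers split the same libraries, at 1032 and 860 CPM against 3838 and 5345 CPM. This held gene by gene for 6 of 10, S100a8 and S100a9 making up most of the sum in HFD_DPI 3 and 4, and not for Camp, Mmp8, Elane and Mpo. Against HFD_Veh, 3 of the 10 were called higher and 0 lower, beside 2.84% of all genes. They were Camp (1.06 on the log2 scale, SE 0.41), Ltf (1.39, SE 0.58) and Ngp (1.18, SE 0.49). Neutrophils carry high Gr1, so the Gr1-low gate is meant to leave them out. B cell markers summed to 39.4, 18.7, 147 and 444 CPM in HFD_DPI 1 to 4. Dendritic cell markers summed to 123, 138, 256 and 409 CPM, with Ccr7 at 554, 218, 656 and 3132 counts. The part of any of these cells in the Cebpb levels was not tested. Maf (0.13), Zeb2 (-0.21), Pparg (0.04) and Rxra (-0.06) had log2 fold changes near 0, but their 95% intervals reached from -1.09 to 1.34, -0.85 to 0.43, -1.52 to 1.61 and -1.59 to 1.46. A 2-fold difference was thus outside the interval for Zeb2 alone among these 4.

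Among the 24 tested relatives and partners, 0 were called in either direction with DPI, and 19 had a negative value (14 under library-size scaling). Of 21 other regulators used by macrophages, 2 were called lower and 0 higher (2.84% of all genes were called). These were the immediate early genes Nr4a1 (log2 fold change -1.08, SE 0.40) and Egr2 (-2.01, SE 0.88), each at an adjusted p of 0.999. Nr4a1, with 364, 522, 786 and 1669 CPM in HFD_DPI and 1575, 1867 and 1870 in HFD_Veh, lost its call under library-size scaling (-0.97) and without HFD_DPI replicate 1 or 2. Egr2 lost its call without HFD_Veh replicate 1 or 3 or without HFD_DPI replicate 1, 2 or 3. In HFD_Veh versus ND, Nr4a1 (1.17, SE 0.50) and the lysosomal regulator Mitf (1.73, SE 0.79) had been called higher, at adjusted p-values of 0.358 and 0.38, and 0 lower, against 11.7% of all genes. Mitf was called with just 2 of the 9 libraries left out in turn, and also lost its call under RLE scaling (1.70). Both genes lost it under library-size scaling and without ND replicate 1. Nr4a1 also lost it without HFD_Veh replicate 2 or 3. Over this list the calls became 3 higher and 1 lower without ND replicate 1, 3 higher and 2 lower without ND replicate 2, and 0 without HFD_Veh replicate 3 or under library-size scaling.

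Textbook targets of PU.1 were called no more often than genes in general. Of 18, 0 were called with DPI against 2.84% of all genes, with a median log2 fold change of -0.12. In HFD_Veh versus ND, 1 was called higher and 1 lower, against 11.7% of all genes, with a median of 0.01 (-0.30 under library-size scaling). Mpeg1, which encodes the pore-forming perforin-2, was the higher one (1.24, SE 0.41, adjusted p = 0.268), and was not called under library-size scaling (0.91) or without ND replicate 2. The lower was Emr1, which encodes the F4/80 antigen used in the sort (-1.05, SE 0.38, adjusted p = 0.293). It was not called without ND replicate 1 or HFD_Veh replicate 3.

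The sum of genes linked to c-MAF split the HFD_DPI libraries. It was 1331, 934, 344 and 322 CPM in HFD_DPI 1 to 4 and 359 to 442 CPM in HFD_Veh, so 2 of the 4 HFD_DPI libraries lay above and 2 below every HFD_Veh library. Not every gene split this way. F13a1 had 12739, 567, 1052 and 1699 counts in HFD_DPI 1 to 4, and was high for the depth in HFD_DPI 1 alone. Il10 had 40, 0, 18 and 35 counts in these libraries. Of the 6 genes, all had a positive log2 fold change under each scaling (5 without HFD_DPI replicate 1), with a median of 1.09. Against 2.84% of all genes, 2 were called, C1qa (1.14, SE 0.50) and C1qc (1.16, SE 0.50), both at an adjusted p of 0.999. C1qa read 109, 124, 32.5 and 32.1 CPM in the 4 HFD_DPI libraries and 19.8 to 41.5 CPM in HFD_Veh. HFD_DPI 1 and HFD_DPI 2 were thus high and the other two lay within the HFD_Veh range. Without HFD_DPI replicate 2 the values were 0.77 for C1qa and 0.66 for C1qc, neither called. Both also lost their call without HFD_Veh replicate 1, HFD_Veh replicate 3 or HFD_DPI replicate 1, and C1qc without HFD_Veh replicate 2. Endothelial markers summed to 158, 82.9, 4.27 and 29.6 CPM in the same 4 libraries, with 7 of 7 tested genes positive and 3 called higher, and Kupffer cell identity genes summed to 73.4, 30.9, 7.98 and 12.9 CPM. Their part in the C1q values was not tested. Of the PPAR and RXR targets, 1 was called lower with DPI and 0 higher. It was Cd36 (-1.04, SE 0.36, adjusted p = 0.999), which was not called under library-size scaling (-0.96) or without HFD_Veh replicate 1, HFD_DPI replicate 1 or HFD_DPI replicate 2. Of the C/EBPβ-linked genes, 1 was called lower, Ptges, with 35, 45 and 3 counts in HFD_Veh and 1 to 5 in HFD_DPI. That number was 0 without HFD_Veh replicate 1, in the fit of the 2 groups and with at least 10 counts in every library, 2 without HFD_DPI replicate 3 and 3 without HFD_DPI replicate 4.

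HFD_DPI against ND shares its libraries with both comparisons above and adds no independent sample. Here 1 gene passed the adjusted threshold (0.00878%) and it was no member. At the study's threshold 3 of 9 members were called, Id3 higher and Maf and Rxra lower, against 9.29% of all genes. Groups did not overlap for Spic and Maf, 2 of 9 against 20.2% of all genes. The members' median was -0.66 against 0.04 over all genes. Under library-size scaling the split of all calls turned from 711 higher and 347 lower to 546 higher and 624 lower.

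Id3 had a log2 fold change of 1.17 against ND (SE 0.44, 95% interval 0.23 to 2.11, adjusted p = 0.39, edgeR quasi-likelihood test), and HFD_DPI 1 at 194 CPM lay within the ND range. It was not called under library-size scaling (0.94) or without ND replicate 2 (0.90). Maf was -1.40 (SE 0.61, adjusted p = 0.445) and Rxra -1.89 (SE 0.76, adjusted p = 0.419). Without ND replicate 1 these were -0.83 and -0.71, and neither was called. Maf also lost its call without HFD_Veh replicate 1 or without HFD_DPI replicate 2, 3 or 4, and Rxra without HFD_DPI replicate 3. Cebpa was -1.55 (95% interval -3.12 to 0.02) and turned to 1.28 without ND replicate 1. It was called under 8 of the 18 alternatives, among them RLE and library-size scaling, both filters, DESeq2, the likelihood ratio test, and without ND replicate 2 or HFD_DPI replicate 2. Zeb2 was -0.66 (-1.38 to 0.06), Spic -1.55 (-3.62 to 0.51), Pparg 1.08 (-0.79 to 2.96), Cebpb 0.05 (-0.86 to 0.95) and Spi1 0.25 (-0.32 to 0.83). Among the relatives, the ETS factor Elf4 was called lower (-1.36, SE 0.44, adjusted p = 0.342), but was -0.18 without ND replicate 1. Lpl was called here too (1.82, SE 0.39, adjusted p = 0.109).

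The genes whose levels followed each member most closely over the 9 libraries were found by the root mean square difference of centred log2 CPM. Spi1 was closest to Smim14 (0.12) and Rnf168 (0.13), Cebpb to Sub1 and Atf4 (0.21 each) and Zeb2 to Ganab (0.18) and Sept9 (0.20). Id3 was closest to Rilpl2 (0.34) and to Fth1 (0.35), the ferritin heavy chain. Maf was closest to Stk3 (0.27) and Rtca (0.33), Pparg to Myef2 (0.26) and Alkbh7 (0.30), and Rxra to Ext1 (0.31) and Cmas (0.43). Cebpa was nearest to Tnks2 (0.32), which showed the same gap between ND libraries, 303 and 24 counts, and to Rap2a (0.45). Spic had the least close neighbours, S1pr5 (0.59) and Rev1 (0.68), against its own spread of 1.38. These values describe 9 libraries and carry no test.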

How the data were processed

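The authors sorted macrophages from mouse livers, made polyA libraries and deposited a table of raw counts, whole numbers without normalization. The study's methods name mm10 with bowtie2 and RSEM, whereas the submitters' processing notes name TopHat2 and edgeR on mm10, and the strand of counting is not given in the sources used here. Every column of the table belongs to a labelled library. The sample titles name 1 mouse per library, while the study gives more mice per group than there are libraries, and whether cells were pooled is not stated in the sources used here.

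Counts were tested in R 4.3.3 with edgeR 4.0.16 (filterByExpr, TMM, glmQLFit, glmQLFTest) on all 9 libraries in 1 fit with 6 residual degrees of freedom, and p was adjusted by Benjamini-Hochberg over 11393 genes. The biological coefficient of variation was 0.65. Standard errors are the fold change over the root of F, and intervals are 95%. Levels are CPM on TMM-scaled library sizes, and log2 CPM used a prior count of 2. Depth was 3534325 to 15585775 counts a library, and 3 counts were taken as the floor, for counting error only. Alternatives were RLE or library-size scaling, removal of Rn45s, no filter or at least 10 counts in every library, DESeq2 1.42.0, edgeR's likelihood ratio test, a replicate block, a fit restricted to the 2 groups compared, and each library left out in turn. Positions and lengths came from GENCODE M21 and promoters from RefSeq.

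The members and gene lists were chosen with earlier results of these data known, and some lists hold genes the study named. All members were named, with at most 3 genes of a list by smallest p in a comparison and the 2 nearest genes of each member. Angptl4, Pecam1, Trf, F13a1, Il10 and the neutrophil genes were named outside this rule, after their values were seen.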

Additional observations from a re-analysis of the deposited data

How the results depend on the processing

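With 2 to 4 libraries a group and a biological coefficient of variation of 0.65, log2 fold changes of the members had standard errors of 0.23 to 1.05, and Spic and Pparg had under 60 counts in every library. Id3 in HFD_Veh versus ND kept its direction and call under all 18 alternatives. The cause of the other changes was not tested.

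Genes called in HFD_Veh versus ND at the study's threshold fell from 1329 to 726 with at least 10 counts in every library, and genes past the adjusted threshold went from 7 to 1 with library-size scaling, 52 with no filter, 1 with at least 10 counts, 319 with DESeq2, 280 with the likelihood ratio test and 0 in the fit of the 2 groups. In HFD_DPI versus HFD_Veh the 324 calls became 602 with no filter and 202 with at least 10 counts, and the 0 adjusted calls became 2 with DESeq2 and 1 with the likelihood ratio test. Members called there were 0 with at least 10 counts and 2 in the fit of the 2 groups. In HFD_DPI versus ND the 1058 calls became 527 with at least 10 counts, and the single adjusted call became 22 with no filter, 219 with DESeq2, 186 with the likelihood ratio test and 0 in the fit of the 2 groups.

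Leaving out each library gave 1027 to 2634, 187 to 543 and 830 to 2626 calls in HFD_Veh versus ND, HFD_DPI versus HFD_Veh and HFD_DPI versus ND, and 1 to 568 and 1 to 572 adjusted calls in the 2 comparisons with ND. The highest counts with ND came without ND replicate 2. Members called numbered 1 to 4, 0 to 2 and 1 to 3.

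Directions turned as follows. Spi1 in HFD_Veh versus ND was -0.03 with RLE scaling, -0.28 with library-size scaling, -0.03 with DESeq2 and -0.14 to 0.21 with a library left out. Cebpb was -0.13 with library-size scaling in both comparisons with ND, and -0.24 to 0.31 (HFD_DPI versus ND) and -0.39 to 0.11 (HFD_DPI versus HFD_Veh) with a library left out. Rxra in HFD_DPI versus HFD_Veh was 0.02 with library-size scaling and -0.47 to 0.31 with a library left out, Maf -0.30 to 0.48 and Pparg -0.35 to 0.32. Cebpa with a library left out ran from -1.34 to 2.36 (HFD_Veh versus ND) and from -2.43 to 1.28 (HFD_DPI versus ND), where without ND replicate 2 it passed the adjusted threshold (adjusted p = 0.0232, against 0.325 to 0.814 under the other alternatives).

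Same-numbered libraries of different groups correlated at -0.0222 to 0.0841 in their deviations from group means, so the replicate numbers were taken as a shared number only. With the replicate number as a block, members called were 1 in HFD_Veh versus ND and 0 in HFD_DPI versus ND, adjusted calls were 0 in both, Spi1 (HFD_Veh versus ND) was -0.05, and Cebpb was -0.03 in HFD_Veh versus ND and -0.50 in HFD_DPI versus ND. Among the other genes named, C1qa (-0.97) and Emr1 (-0.93) in HFD_Veh versus ND and Egr2 (-2.23) in HFD_DPI versus HFD_Veh were not called with the block, C/EBPβ-linked genes called lower in HFD_DPI versus HFD_Veh were 2, Lpl had an adjusted p of 0.166, and the iron genes linked to SPI-C had a median of -0.29 in HFD_DPI versus HFD_Veh.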
